A study of Arabidopsis thaliana with 9 samples.

Results

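This account follows 10 Arabidopsis thaliana genes of zinc supply: the transporters ZIP1 (AT3G12750), ZIP2 (AT5G59520), ZIP3 (AT2G32270), ZIP4 (AT1G10970), ZIP5 (AT1G05300), ZIP9 (AT4G33020), ZIP10 (AT1G31260) and IRT3 (AT1G60960) and the transcription factors bZIP19 (AT4G35040) and bZIP23 (AT2G16770). They were taken by locus from a deposited expression table of 32833 loci, by a rule that names loci and sets no threshold on their values. RNA was sequenced in 3 groups of 3 libraries, described in the labels as biological replicates. Col-0 wild type seedlings and ntrc mutant seedlings were 6 days old and came from MS medium, a mineral salt medium, under continuous light. Young rosette leaves of adult ntrc plants were 8 weeks old and came from soil and short days, with 3 plants pooled in each library. All plants had light at 125 µE per square metre and second, and no adult wild type library is analysed here. The labels name the mutant only as ntrc and give no allele. NTRC is a plastid protein in which a thioredoxin reductase that uses NADPH is fused to its own thioredoxin. By its title, the series concerns the part of NTRC in iron supply over development.

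ZIP proteins (ZRT, IRT-like proteins) carry zinc, iron, manganese and related metal ions into the cytoplasm, from outside the cell or from organelles. In Arabidopsis, bZIP19 and bZIP23 raise the transcription of several ZIP genes when zinc is short, by binding a short palindrome called the zinc deficiency response element. Both factors bind zinc ions themselves, which stops their activity when zinc is ample, so their own transcript level is not their usual point of control. Zinc and iron supply meet in this family, because IRT1, the main iron uptake transporter of the root, also carries zinc.

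The DNA just before the gene starts shows which members carry the core of that element. The letters TGTCGACA, a palindrome that reads the same on both strands, were searched in the 250 bases before each annotated gene start in the RefSeq genome TAIR10.1. They were present for 3 of the 10 members, ZIP4, ZIP10 and IRT3, against 72 of 27444 protein-coding genes, or 0.262%. Each of the 3 matches was also a full 10-base element, which 22 genes, or 0.0802%, carried. In the 1000 bases before the start, ZIP5 joined them with a core 831 bases away, and 284 genes, or 1.03%, held the core. A match describes letters in this window only, and bases after the annotated start were not searched. Members such as ZIP4 and IRT3 are reported targets of the factors that bind this element. A share above that of all genes is therefore no finding of these data. The 3 windows with a core are shown first, with the core in capitals, and then those of ZIP2 and ZIP3, the members with the largest differences between genotypes, which hold no core here. Only the part of each window next to the start is printed, at most 125 bases, while the search covered all 250. The printed part of ZIP4 is shorter than the others because the neighbouring gene AT1G10980, on the same strand, ends there.
IRT3 (TAIR10.1 chr1:22447300-22447424, minus strand): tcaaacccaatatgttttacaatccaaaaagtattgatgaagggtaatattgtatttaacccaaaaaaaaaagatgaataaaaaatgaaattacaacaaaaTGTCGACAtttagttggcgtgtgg
ZIP4 (TAIR10.1 chr1:3667140-3667223, minus strand): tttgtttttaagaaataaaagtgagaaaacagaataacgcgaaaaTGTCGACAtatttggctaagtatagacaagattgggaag
ZIP10 (TAIR10.1 chr1:11177363-11177487, minus strand): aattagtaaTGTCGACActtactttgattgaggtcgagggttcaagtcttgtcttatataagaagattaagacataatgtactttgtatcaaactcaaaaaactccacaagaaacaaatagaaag
ZIP2 (TAIR10.1 chr5:23992909-23993033, minus strand): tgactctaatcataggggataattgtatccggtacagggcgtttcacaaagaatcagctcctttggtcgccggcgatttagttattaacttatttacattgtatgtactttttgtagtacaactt
ZIP3 (TAIR10.1 chr2:13703943-13704067, plus strand): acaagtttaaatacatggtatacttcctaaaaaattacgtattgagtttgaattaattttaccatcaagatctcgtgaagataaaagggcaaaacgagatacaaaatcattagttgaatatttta
The core began 24 bases before the start of IRT3, 39 before that of ZIP4 and 116 before that of ZIP10. All 3 genes lie on chromosome 1.

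**Figure D1:**
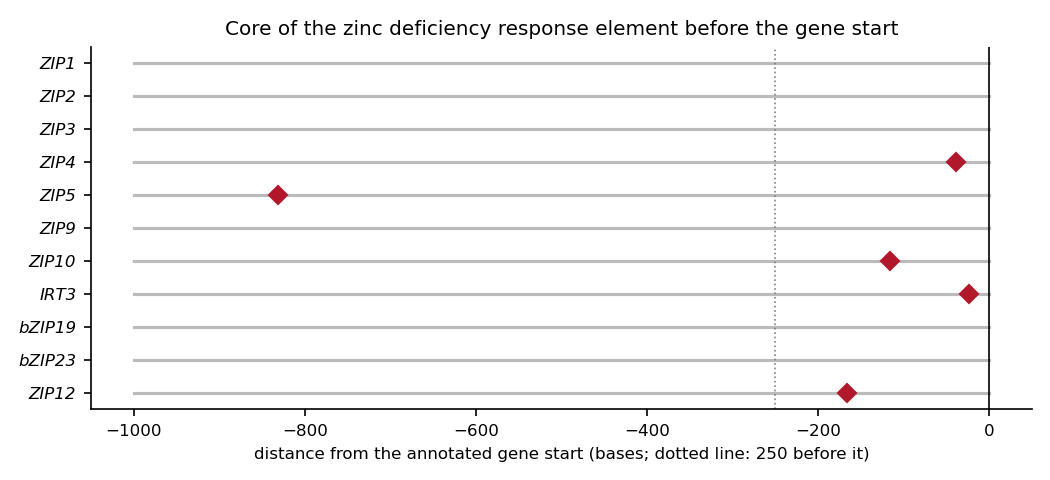
Position of the core of the zinc deficiency response element in the 1000 bases before the annotated start of each member and of ZIP12, a further family gene. The x axis gives the distance from the gene start in bases, diamonds mark cores, and the dotted line stands 250 bases before the start; IRT3, ZIP4, ZIP10 and ZIP12 have a core inside that line, ZIP5 has one at 831 bases, and the other members have none.

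Expression was read as log2(FPKM + 1). FPKM scales the fragments of a gene by its transcript length and by the size of the library. The upper quartile of the deposited values was the same in all libraries of a stage, 3.70 in seedlings and 2.44 in adult leaves. The stages were thus scaled apart, and their levels are not on 1 scale. Sequencing depth is unknown. At least 1 FPKM was reached by 18539 to 18829 loci in seedling libraries and by 15331 to 15460 in adult ones, where that cutoff is not the same. NTRC itself (AT2G41680), the mutated gene, stood at 130 to 175 FPKM in wild type seedlings, 16.4 to 19.6 in ntrc seedlings and 15.1 to 16.2 in adult ntrc leaves. Root markers, genes of the endodermis and of root hairs, checked the tissue labels: all 10 were above 1 FPKM in each seedling library and below it in each adult library.

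In seedlings 9 of the 10 members were listed above 0, most of them at a low level. In wild type seedlings bZIP19 had the highest level, 14.0 ± 1.48 FPKM (mean ± SD, n = 3, as in all such values here). ZIP2, a transporter of manganese and zinc in the root, followed at 7.53 ± 2.39 and IRT3, a zinc and iron transporter of the plasma membrane, at 6.5 ± 1.24 FPKM, and these neighbours did not differ beyond their spread. bZIP23 stood at 2.64 ± 0.117 FPKM, ZIP3 at 2.57 ± 0.975, ZIP1 at 1.95 ± 0.330, ZIP4 at 1.70 ± 0.509 and ZIP5 at 1.69 ± 0.333, again with overlapping neighbours. ZIP9 stayed below 1 FPKM in every library, and ZIP10 was listed at 0 in all 9. These 2 genes were therefore not tested in the main fit. The other 8 members exceeded 1 FPKM in each of the 6 seedling libraries and did not enter the test through 1 genotype.

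**Figure D2:**
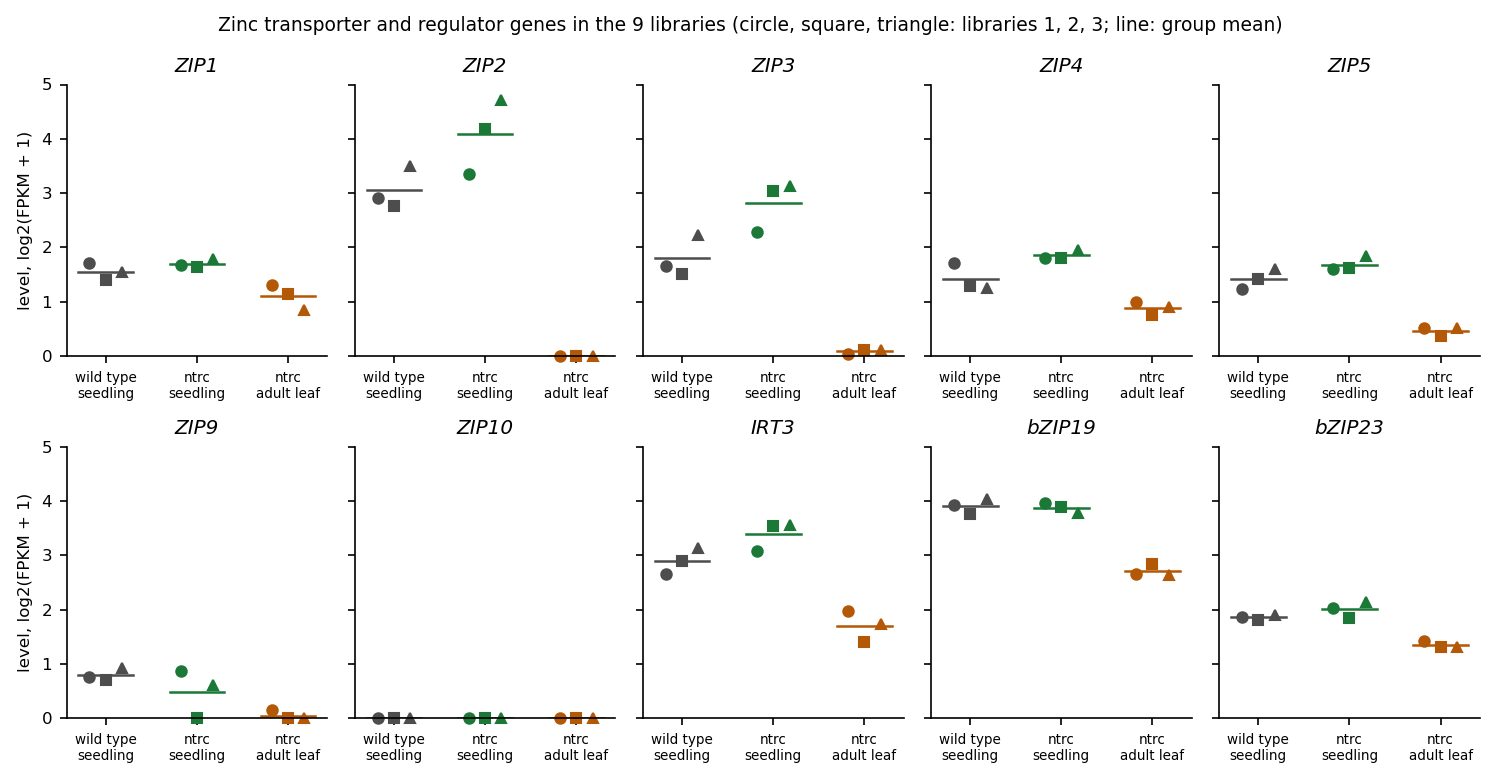
Level of each member in the 9 libraries as log2(FPKM + 1), with 1 panel per gene; symbols are libraries and lines are group means. ZIP2 and ZIP3 show the widest gap between wild type and ntrc seedlings, and bZIP19 and bZIP23 stay level between these groups. In adult leaves, whose values were scaled apart from the seedlings, bZIP19 and bZIP23 read lower and ZIP2 is listed at 0.

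The comparison of seedlings asked whether loss of NTRC changed these genes. Most transporters read higher in ntrc, by up to about 1 on the log2 scale, but no member passed the test over all genes. Of the 8 tested members 7 had a positive log2 fold change, against 51.2% of the 18818 genes tested. The median over the 8 was 0.35, against 0.0037 over all genes. Without the filter on low values ZIP9 was tested as well, at -0.30. Then 7 of 9 members were higher and 2 lower, with a median of 0.26, against 0.0019 over all genes. Genes passed at an adjusted p below 0.05 (limma, Benjamini-Hochberg over all genes tested, two-sided). By that rule 0 of 8 members rose and 0 fell, where 0.00531% of all genes rose and 0.0213% fell. The smallest adjusted p among the members was 0.948 (limma). At an unadjusted p below 0.05 there were 943 genes of 18818, among them ZIP2, ZIP3, ZIP4 and IRT3. The replicate number was also used as a block, a pairing that the labels do not state. In that fit again 0 of 8 members passed, where 0.159% of all genes rose and 0.229% fell.

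ZIP3, a transporter that takes up zinc when expressed in yeast, read 2.18, 1.85 and 3.67 FPKM in the wild type libraries numbered 1 to 3. In ntrc libraries 1 to 3 it read 3.90, 7.19 and 7.73 FPKM. All 3 ntrc values lay above all 3 wild type values, though ntrc library 1 was close to wild type library 3. The log2 fold change was 1.02 (SE 0.27), with an adjusted p of 0.948 without the block and 0.0922 with it (limma, Benjamini-Hochberg).

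ZIP2 read 6.51, 5.81 and 10.3 FPKM in wild type and, in the same order of library numbers, 9.18, 17.0 and 25.3 FPKM in ntrc. The groups overlapped, since ntrc library 1 lay below wild type library 3, while the other ntrc libraries lay above every wild type one. The log2 fold change was 1.02 (SE 0.38), and the adjusted p was 0.948 without and 0.145 with the block (limma, Benjamini-Hochberg). ZIP2 passed in 1 alternative fit, the blocked one without pair 1 (log2 fold change 1.32, adjusted p = 0.0326, limma), and in the other blocked fits its adjusted p reached 0.448. Pair 1 held the smallest difference of this gene, so that leaving it out favours the call.

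IRT3 read 5.28, 6.49 and 7.75 FPKM in wild type and 7.43, 10.7 and 10.8 FPKM in ntrc libraries 1 to 3. Only ntrc library 1 reached into the wild type range. The log2 fold change was 0.50 (SE 0.17), and the adjusted p with the block was 0.0889 (limma, Benjamini-Hochberg), the lowest of the members there.

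ZIP4, which zinc deficiency induces in roots and shoots, read 2.29, 1.44 and 1.38 FPKM in wild type and 2.52, 2.50 and 2.86 FPKM in ntrc. The ntrc values lay close together and all above wild type, whose library 1 came near them. Its log2 fold change was 0.44 (SE 0.15), and in the blocked fit its adjusted p was 0.299 (limma, Benjamini-Hochberg). ZIP3 and ZIP4 were the members with every ntrc library above every wild type library, which held for 5.39% of all genes tested, and for 0 members every ntrc library lay below, as it did for 4.37% of genes. ZIP4 and IRT3 share coding sequence, with 81.9% of aligned bases identical and a longest identical run of 32 bases. For bZIP19 and bZIP23 the values were 82.8% and 21 bases, and for ZIP3 and ZIP5 79.9% and 24 bases. No source used here says how reads that fit 2 of these genes were assigned.

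The remaining transporters differed less. ZIP5, also induced by zinc deficiency, read 1.36, 1.68 and 2.03 FPKM in wild type and 2.02, 2.06 and 2.57 FPKM in ntrc, a log2 fold change of 0.26 (SE 0.14). ZIP1, reported to move metal ions out of the vacuole, read 1.63 to 2.29 FPKM in wild type and 2.10 to 2.46 FPKM in ntrc, a log2 fold change of 0.15 (SE 0.13). The genotypes overlapped for both genes. ZIP9 was listed at 0.690, 0.631 and 0.898 FPKM in wild type and at 0.834, 0 and 0.522 FPKM in ntrc libraries 1 to 3, below the level at which genes were tested.

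The regulators differed little. bZIP19 read 14.1, 12.5 and 15.5 FPKM in wild type and 14.6, 13.9 and 12.8 FPKM in ntrc libraries 1 to 3, with a log2 fold change of -0.025 (SE 0.10) whose sign changed without library 3 of either genotype. bZIP23 read 2.65, 2.52 and 2.75 FPKM in wild type and 3.07, 2.61 and 3.39 FPKM in ntrc, with a log2 fold change of 0.14 (SE 0.11). Both differences were smaller than 2 standard errors, and the groups overlapped for both genes. The gene models of ZIP1, bZIP19 and bZIP23 each overlap 1 other gene on the opposite strand (AT3G12740, AT4G35050 and AT2G16780), and no source used here says if counting took account of strand.

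**Figure D3:**
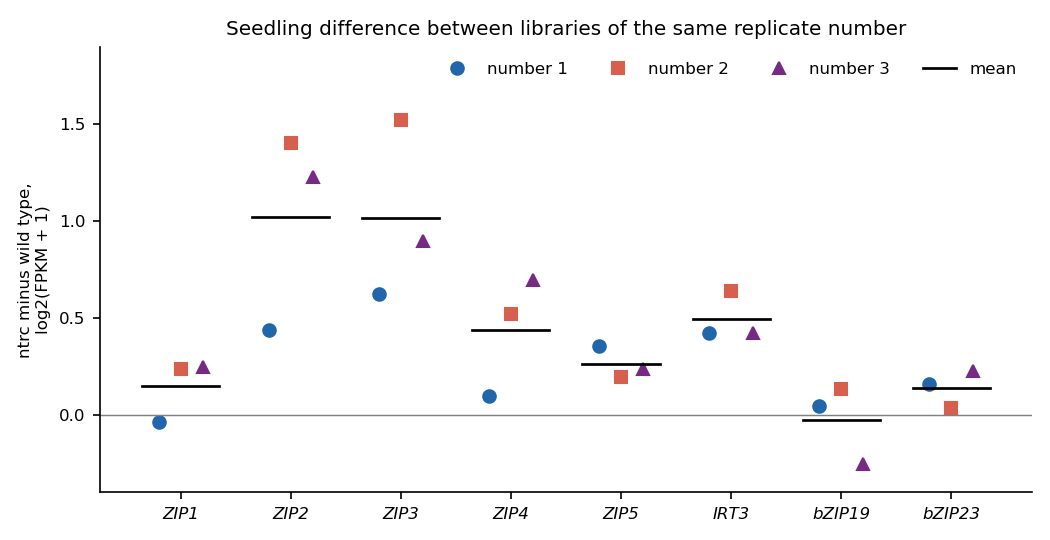
Difference between the ntrc and wild type seedling library of the same replicate number for the 8 tested members, on the log2(FPKM + 1) scale, with symbols for the 3 numbers and a line for the mean. Number 1 gives the smallest difference for ZIP2, ZIP3 and ZIP4, the differences of ZIP3 run from 0.62 to 1.53, and those of bZIP19 lie on both sides of 0.

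Libraries of the same number gave differences of like sign for most members. Of the 8 tested members 6 were higher in ntrc in all 3 pairs (ZIP2, ZIP3, ZIP4, ZIP5, IRT3 and bZIP23), against 18.7% of all genes tested. The size varied between pairs. ZIP2 differed by 0.44, 1.40 and 1.23 in pairs 1 to 3, ZIP3 by 0.62, 1.53 and 0.90, ZIP4 by 0.096, 0.52 and 0.70, and IRT3 by 0.43, 0.64 and 0.43, all on the log2 scale. ZIP1 differed by -0.034, 0.24 and 0.25.

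Several transporters varied together from library to library. Over the 6 seedling libraries the Pearson correlation of log2 levels was 0.973 between ZIP2 and ZIP3, 0.950 between ZIP3 and IRT3, 0.932 between ZIP2 and IRT3, 0.90 between ZIP5 and IRT3 and 0.879 between ZIP1 and ZIP4. ZIP4 followed IRT3 less closely (0.443), and the part of the core element that both carry was not tested. bZIP19 gave -0.178 to 0.106 with the 6 tested transporters, and bZIP23 gave 0.481 to 0.741. These values describe 6 libraries that share their scaling and their genotype groups. The mean of the 6 transporters, centred per gene, came to -0.32, -0.43 and -0.10 for wild type 1 to 3, against -0.0050, 0.33 and 0.52 for ntrc 1 to 3, so wild type library 3 and ntrc library 1 lay next to each other.

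Outside the members, the 5 loci most like that mean over the 6 seedling libraries had Pearson correlations of 0.992 to 0.997. They were AT3G11280, a MYB-like protein, EXPA2 (AT5G05290), an expansin, AT5G45410, WAT1 (AT1G75500), needed for secondary walls in fibres, and UMAMIT29 (AT4G01430), an amino acid transporter. Their log2 fold changes were 0.32 for AT3G11280, 1.40 for EXPA2, 0.26 for AT5G45410, 0.32 for WAT1 and 1.02 for UMAMIT29, in a choice that follows the members' own profile. In all 384 loci, or 2.04%, exceeded 0.9.

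As a sum, the 8 transporters stood at 20.6, 19.5 and 27.9 FPKM for wild type 1 to 3, against 28.1, 41.6 and 52.2 FPKM for ntrc 1 to 3. Every ntrc sum lay above every wild type sum, by a narrow margin between ntrc library 1 and wild type library 3. ZIP2 made up 29.8% to 36.8% of the sum in wild type and 32.7% to 48.5% in ntrc, and IRT3 25.6% to 33.2% and 20.6% to 26.4%. The 10 root markers summed to 78.2, 98.3 and 135 FPKM in wild type and to 110, 102 and 112 FPKM in ntrc, and 8 of 10 had a positive log2 fold change, with a median of 0.11. Without wild type library 1 only 3 of the 10 were higher, with a median of -0.081, and in the blocked fit without pair 1 also 3, with a median of -0.11. ESB1, an endodermal gene, lay below wild type in every ntrc library (log2 fold change -0.73) and passed in 1 fit, the blocked one without pair 3 (adjusted p = 0.0210, limma). Pair 3 held the smallest difference of ESB1, so that leaving it out favours the call. The 9 markers of green tissue summed to 38370 to 52790 FPKM in wild type and 40360 to 50380 FPKM in ntrc, ranges that overlap, with a median log2 fold change of -0.064. That median was 0.097 without wild type library 2, 0.094 in the blocked fit without pair 2 and -0.21 with quantile normalization. The part of root share in the members' differences was not tested. In bulk libraries, fewer cells of a type and less RNA per cell cannot be told apart.

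Other zinc genes showed no common direction. Of 9 further ZIP family genes 6 were tested, 2 higher and 4 lower, with a median log2 fold change of -0.024. Leaving out wild type library 1 gave 4 higher and 2 lower (median 0.028), and leaving out wild type library 3 gave 1 and 5 (median -0.13). The iron transporters IRT1 (AT4G19690) and IRT2 (AT4G19680) differed most, and in the opposite direction to ZIP2 and ZIP3. IRT2 read 13.0, 7.67 and 8.24 FPKM in wild type and 8.0, 2.60 and 1.84 FPKM in ntrc, a log2 fold change of -1.20 (SE 0.47). IRT1 read 161, 132 and 152 FPKM in wild type and 133, 42.4 and 60.6 FPKM in ntrc, so that ntrc library 1 lay within the wild type range, as it did for ZIP2 and IRT3. Neither passed with or without the block (adjusted p 0.101 for IRT2 and 0.281 for IRT1 in the blocked fit, limma). Both fell in the blocked fit without pair 1, with adjusted p of 0.0456 for IRT2 and 0.0328 for IRT1 (limma). Pair 1 held the smallest difference of both genes, so that leaving it out favours these calls.

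Among genes for chelation, sequestration and export of zinc, 17 of 19 were tested, 7 higher and 10 lower, with a median log2 fold change of -0.072. ZIF1 (AT5G13740), which loads the metal chelator nicotianamine into the vacuole, read 43.1, 26.0 and 16.4 FPKM in wild type and 19.3, 10.4 and 9.43 FPKM in ntrc. Its log2 fold change was -1.03 (SE 0.41), and it fell with the block (adjusted p = 0.0234, limma) but not without it (0.948), nor in the blocked fits without pair 1 or 2, where adjusted p reached 0.109. It was the 1 gene of this list that passed in the blocked fit with all pairs. In the blocked fit without pair 1 the gene that passed was MTP3, a vacuolar zinc transporter (-0.98, adjusted p = 0.0456, limma). With all libraries MTP3 had a log2 fold change of -0.62 (SE 0.27). It differed by 0.082, -0.93 and -1.03 in pairs 1 to 3, so that leaving out pair 1 favours the call. NAS2 (AT5G56080), a nicotianamine synthase of roots and a reported target of bZIP19 and bZIP23, read 11.4, 3.75 and 5.91 FPKM in wild type and 6.49, 1.40 and 5.17 FPKM in ntrc, a log2 fold change of -0.62 (SE 0.55) that went to -0.25 without wild type library 1 and to -0.12 without ntrc library 2. Of 10 reported targets of the 2 factors 7 were tested, of which the 5 transporters ZIP1, ZIP3, ZIP4, ZIP5 and IRT3 had positive and NAS2 and NAS4 negative values. NAS4 had -0.38, and 0.037 without wild type library 1.

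**Figure D4:**
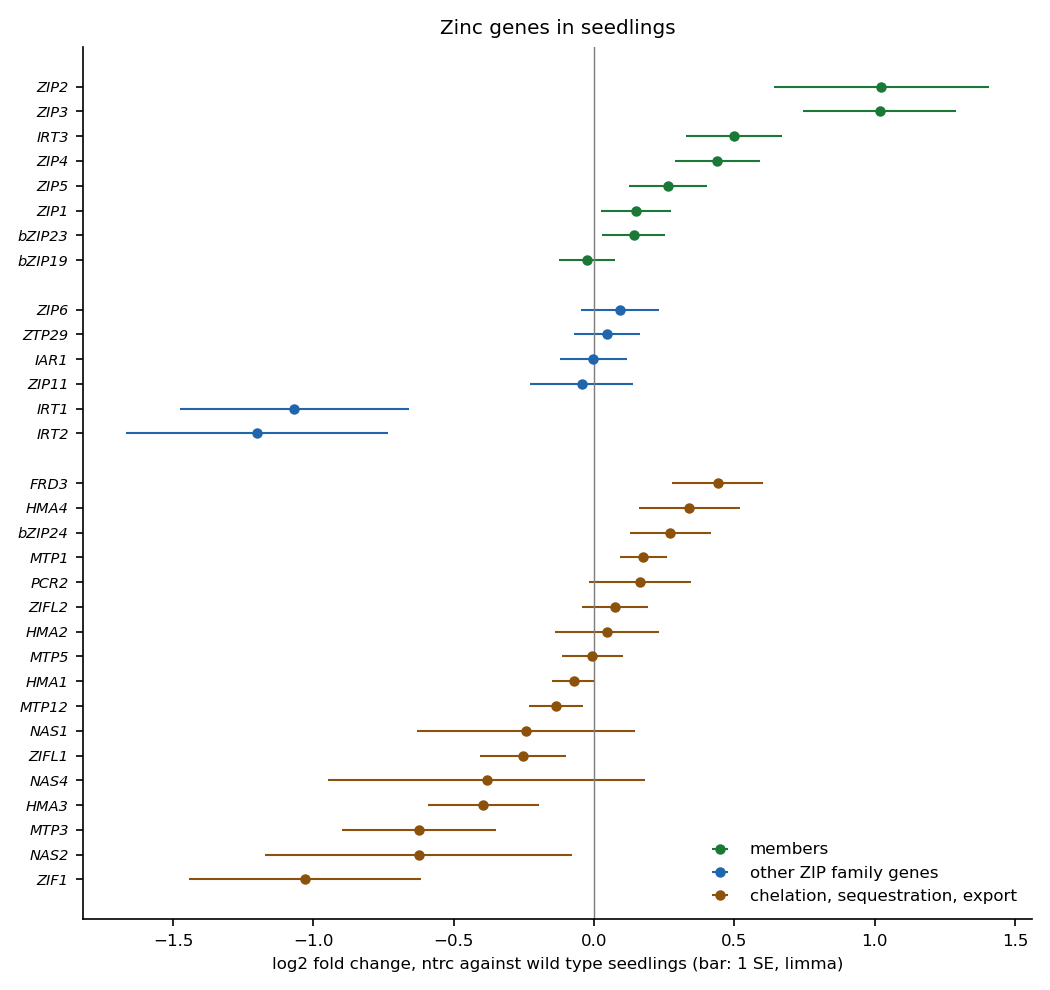
Log2 fold change of ntrc against wild type seedlings for all tested zinc genes, by list, with bars of 1 SE (limma, 3 libraries per genotype, no block). The members lie mostly to the right of 0, IRT1, IRT2 and ZIF1 lie near or below -1, and no gene shown passed over all genes in this fit.

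In adult ntrc leaves the order of the transporter levels was not that of seedlings, with ZIP2 and ZIP3 last or near last and IRT3 first. Age, organ, medium, day length and library kit change together between the stages, and the authors' values were scaled apart, so these levels are described without a test and the causes cannot be told apart. At least 1 FPKM in at least 3 ntrc libraries of either stage was reached by 18986 loci. On the deposited scale 88% of these loci lay lower in every adult library than in every ntrc seedling library. Of the 10 members 8 did so, and the others, ZIP9 and ZIP10, did not pass that filter. In 6.85% of loci every adult library lay higher, which held for 0 members. The rank of a gene among all loci of its own library does not depend on that scaling. It does depend on how many loci were detected. Counts of loci at 1 FPKM do not settle that, since the cutoff differs between stages that were scaled apart. By rank, 44.8% of the 18986 loci lay lower in every adult library and 31.3% higher.

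ZIP2, the most abundant of the 8 transporters in ntrc seedlings, was listed at 0 in all 3 adult libraries. ZIP3 read 0.0244, 0.0816 and 0.0852 FPKM in adult leaves, and its rank went from 56.0% to 66.8% in ntrc seedlings to 29.7% to 36.0% in adult leaves, where a rank is the share of loci with a lower value. ZIP5 ranked at 48.7% to 51.4% in ntrc seedlings and 42.4% to 45.8% in leaves. These 3 members ranked lower in every leaf library than in every ntrc seedling library.

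IRT3 was the most abundant of the 8 transporters in leaves, at 2.96, 1.64 and 2.32 FPKM, or 41.8% to 51.6% of their sum, and its rank of 58.9% to 67.9% overlapped that of ntrc seedlings, 66.2% to 73.0%. ZIP1 followed at 1.49, 1.21 and 0.799 FPKM and ZIP4 at 1.00, 0.692 and 0.861 FPKM, levels that overlapped. ZIP4 ranked at 49.3% to 53.0% in leaves and 50.9% to 52.4% in ntrc seedlings, so the stages overlapped. ZIP1 ranked higher in leaves, at 51.0% to 57.5% against 49.6% to 50.9%, while its deposited values were lower there.

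The regulators kept their rank or ranked higher in leaves. Their deposited values were lower in every adult library than in every ntrc seedling library. bZIP19 ranked at 77.9% to 80.5% in leaves and 76.2% to 78.4% in ntrc seedlings, with 5.33, 6.14 and 5.22 FPKM in the adult libraries, the highest level of the members there. bZIP23 ranked at 57.7% to 59.0% in leaves, above the 51.8% to 54.4% of ntrc seedlings. The 10 root markers summed to 0.169 to 0.346 FPKM in adult leaves, 5 of them listed at 0 in all 3 libraries, and IRT2 was listed at 0 as well. The part of the missing roots in the levels of ZIP2 and ZIP3 was not tested.

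**Figure D5:**
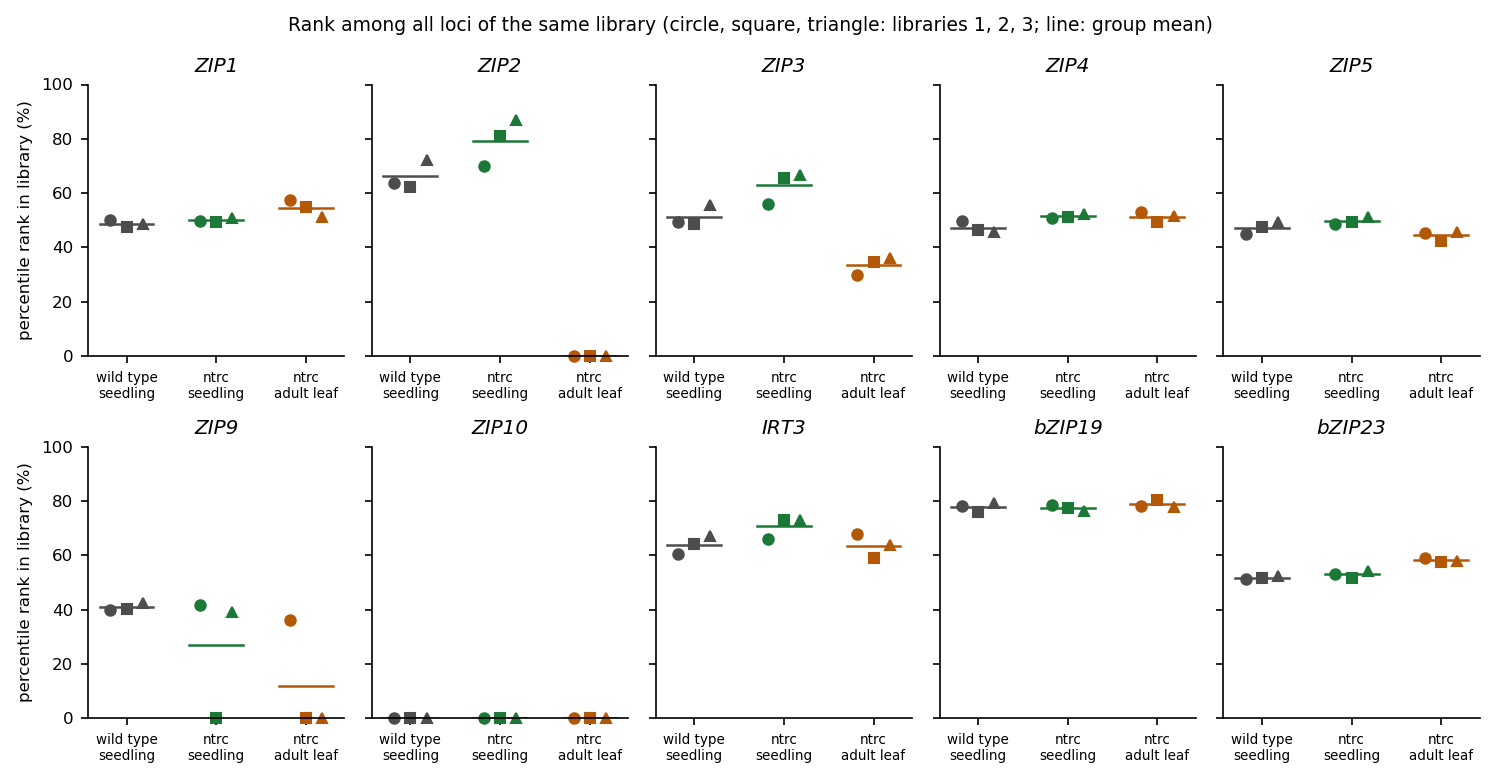
Percentile rank of each member among all 32833 loci of its own library, the share of loci with a lower value in percent, with symbols for libraries and lines for group means. ZIP2 and ZIP3 rank far lower in adult leaves than in seedlings, IRT3, ZIP4 and bZIP19 overlap between the stages, and ZIP1 and bZIP23 rank higher in adult leaves than in ntrc seedlings.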

How the data were processed

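The authors deposited 1 table of log2 values for 9 libraries, with each column named as its sample. The values were read as log2(FPKM + 1) because the name of the deposited data gives FPKM and the values start at 0. The log base and pseudocount are not given in the sources used here. The upper quartile was 3.70 in each seedling library and 2.44 in each adult library, so the values were scaled within each stage. Per the submitters' processing notes, FastQC, HISAT2, StringTie and TAIR10 were used, without versions. Per the labels' protocols, library kits differed by stage: total RNA depleted of ribosomal RNA for adult leaves, and mRNA for seedlings, both stranded. Depth is unknown, so precision rests on 3 libraries per group. No library pair held identical values.

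The seedling comparison used R 4.3.3 and limma 3.58.1 (mean trend, robust, two-sided, Benjamini-Hochberg adjusted over 18818 genes with at least 1 FPKM in 3 of 6 libraries). The script was tested on simulated data. Fold changes on the log2(FPKM + 1) scale understate those of low genes. Deviations from group means correlated at 0.506, 0.406 and 0.278 between libraries of the same number, and at -0.388 to 0.115 between unlike numbers. Numbers were taken as pairs on that ground, a pairing that the values gave and the labels do not state. Since the same values were then tested, p-values with the block may be too small. The main fit holds no block, and the blocked fit stands beside each call it changes. Sequences and gene models came from the RefSeq TAIR10.1 genome by locus, while the deposited table holds no coordinates. The members and lists were chosen with earlier results of these data known. Named were all members, the 2 genes of each other zinc list with the largest absolute fold change, genes that passed with or without the block, and the 5 loci most like the transporters. MTP3, NAS4 and ESB1 were named after their values were seen. Alternatives were another pseudocount, filter or scaling, the block, all 9 libraries in 1 fit, and leaving out libraries or pairs.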

Additional observations from a re-analysis of the deposited data

How the results depend on the processing

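No tested member passed over all genes in any fit except ZIP2 in the blocked fit without pair 1, where the number of members that rose went from 0 to 1. Over all fits ZIP2 ranged from 0.70 to 1.39 on the log2 scale, ZIP3 from 0.76 to 1.28, IRT3 from 0.37 to 0.66 and ZIP4 from 0.31 to 0.63. bZIP19 lay between -0.0997 and 0.043 without 1 library and changed sign without wild type library 3 (0.043), without ntrc library 3 (0.022) and in the blocked fit without pair 3 (0.090). In the blocked fit 1 gene of zinc chelation, sequestration and export fell, ZIF1, as it did with quantile or median ratio scaling, alternatives added after the data were seen. Without a pair the count was 1 without pair 1 (MTP3), 0 without pair 2 and 1 without pair 3 (ZIF1). Other ZIP family genes that fell numbered 0 to 2 in the blocked fits without a pair.

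Over all genes 1 rose and 4 fell. With the replicate block 30 rose and 43 fell, 27 and 45 with quantile normalization added and 26 and 41 with median ratio scaling, and 21, 6 and 28 rose and 51, 23 and 43 fell with the block but without pair 1, 2 or 3. With a pseudocount of 0.1, 0 rose and 2 fell, 0 rose with a filter of 1 FPKM in all 6 libraries, and 8 fell with all 9 libraries in 1 fit. Without 1 library 0 to 2 rose and 1 to 22 fell. The causes of these changes were not tested.

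The lower values of ZIP1, bZIP19 and bZIP23 in adult leaves, -0.60, -1.17 and -0.65 on the log2 scale, turned to 0.39, 0.12 and 0.41 when all 9 libraries were quantile normalized, and their ranks were higher there by 4.49, 1.55 and 5.05 percentage points. ZIP4 went from -0.97 to -0.015. Unknown depth limits what can be said of ZIP9 and ZIP10.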
